A study of Mus musculus with 11 samples.

Results

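The p53 and CDKN2A tumour suppressor axis was examined in bulk RNA of 11 orthotopic pancreatic tumours through 10 named genes: Trp53, Mdm2, Cdkn1a, Ccng1, Bax, Sesn2, Zmat3, Cdkn2a, Cdkn2b and Rb1. The members were picked by gene name from a table of 54232 genes, and the rule used no measured value. They were, however, chosen with earlier results of these data known. The hosts were female C57BL/6 mice, all heterozygous for the RosaCreERT2 allele and all given tamoxifen, with either a homozygous floxed Pkn2 gene (PKN2KO, n = 6, tumours A to F) or a wild-type Pkn2 gene (WT, n = 5, tumours A to E). Each pancreas received 1000 TB32048 carcinoma cells with intact PKN2 in DMEM and Matrigel. The hosts were age-matched adults, and all tumours were taken at a single end point.

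The model set limits on what these counts could show. RosaCreERT2 is active in all host tissues, so the deletion of Pkn2, which encodes protein kinase N2, was not confined to one stromal cell type. The carcinoma cells came from 1 line, derived from a KPC mouse, a model that by convention carries a point-mutant Trp53 allele in the pancreas. Gene counts do not separate a mutant from a wild-type Trp53 transcript, nor a carcinoma transcript from a host one. In bulk tissue, fewer cells of a type and less RNA per cell cannot be told apart.

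The p53 protein is a stress-activated transcription factor that halts the cell cycle or triggers apoptosis through its target genes. It is held at a low level by the ubiquitin ligase MDM2, itself a p53 target. The Cdkn2a locus encodes p16INK4A, which inhibits the cyclin D kinases and so keeps the retinoblastoma protein RB1 active, and p19ARF, which inhibits MDM2 and so stabilises p53. Both arms are lost or mutated in most human pancreatic ductal carcinomas, and many p53 targets depend on functional p53, whereas the mutant protein often accumulates.

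Upstream sequences that hold a p53 or an E2F element are given first, because p53 and the E2F factors are known to act on their target genes through such elements. RefSeq (GRCm38.p6) held a promoter entry for 8 of the 10 members, with 10 start sites, and none for Zmat3 and Rb1. In the 250 bases upstream of each start, a p53 consensus element (a paired decamer with a spacer of up to 1 base, core C and G of each decamer fixed, up to 2 mismatches) was found for Bax, Ccng1 and the upstream start of Cdkn1a. The E2F word TTTCCCGC, searched on both strands, was found upstream of the distal Cdkn2a start, which is that of the p19ARF transcript. Capitals mark the matched element in each sequence, printed 5′ to 3′ along the gene.

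Bax, chr7:45466899-45467148, minus strand: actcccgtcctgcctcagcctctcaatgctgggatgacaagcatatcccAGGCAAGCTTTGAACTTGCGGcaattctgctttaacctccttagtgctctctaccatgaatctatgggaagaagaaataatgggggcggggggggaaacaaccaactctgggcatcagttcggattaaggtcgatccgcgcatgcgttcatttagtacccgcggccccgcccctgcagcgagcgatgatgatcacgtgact
Ccng1, chr11:40755287-40755536, minus strand: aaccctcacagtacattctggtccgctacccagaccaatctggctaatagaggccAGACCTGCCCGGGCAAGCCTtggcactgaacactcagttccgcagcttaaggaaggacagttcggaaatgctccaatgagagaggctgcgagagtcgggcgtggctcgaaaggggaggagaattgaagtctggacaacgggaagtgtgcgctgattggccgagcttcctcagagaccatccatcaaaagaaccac
Cdkn1a, chr17:29090729-29090978, plus strand: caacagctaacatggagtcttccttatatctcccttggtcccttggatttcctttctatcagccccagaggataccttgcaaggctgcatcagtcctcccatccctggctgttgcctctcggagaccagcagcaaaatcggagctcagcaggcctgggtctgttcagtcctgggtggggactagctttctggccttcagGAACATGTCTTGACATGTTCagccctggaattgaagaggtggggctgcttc
Cdkn2a, chr4:89294620-89294869, minus strand: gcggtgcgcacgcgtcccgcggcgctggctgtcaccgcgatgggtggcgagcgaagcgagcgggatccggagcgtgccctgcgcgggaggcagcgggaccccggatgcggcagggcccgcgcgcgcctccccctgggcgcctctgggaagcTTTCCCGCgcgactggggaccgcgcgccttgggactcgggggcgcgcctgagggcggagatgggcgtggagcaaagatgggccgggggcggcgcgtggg

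The p53 elements began 201 bases before the start in Bax (2 mismatches), 195 bases in Ccng1 (1 mismatch) and 51 bases in Cdkn1a (1 mismatch). Up to 2 mismatches were found in 181 of 32851 RefSeq promoter windows of the same length (0.551%) and up to 1 mismatch in 29 (0.0883%). The E2F word was present in 294 windows (0.895%). Among 30 other listed p53 targets with an entry, 2 held a p53 element by the same rule, Ckap2 and Rps27l. The nearest match upstream of Trp53 had 3 mismatches. The mismatch limit was chosen after the matches had been seen, and a match is a string of letters, not evidence of binding in these tumours.

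The libraries held between 16294128 and 31121422 counts, with 22791627 to 28017673 in KO and the lowest and the highest total both in WT (B and E). Counts of Pkn2 did not separate the groups: the mean was 96.6 ± 9.34 CPM in KO (SD, n = 6) and 96.7 ± 34.7 in WT (SD, n = 5). The deletion could therefore not be checked in these counts, which cover the whole gene and include carcinoma RNA. The part of either in the Pkn2 values was not tested. CPM here are counts scaled to a common library total after correction by the trimmed mean of M values (TMM). WT tumours A, B and C stood apart from the other 8 in a trend with exon length: in A, B and C the quartile of shortest genes exceeded that of the longest by a median of 0.76, 0.99 and 0.26 on the log2 scale, each gene taken relative to its mean over tumours. In the other tumours this difference lay between -0.10 and -0.42. Ribosomal RNA, here the summed share of Gm42418 and the mitochondrial genes mt-Rnr1 and mt-Rnr2, took 6.39% of counts in WT B. It took 1.31% in WT A and 1.40% in WT C, against 0.241 to 0.765% in the other 8. Member differences and list counts are therefore also given without WT A, B and C, which leaves 2 WT tumours, and after removal of the length trend.

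None of the 10 members passed an adjusted p of 0.05 between KO and WT by the quasi-likelihood test of edgeR, with Benjamini-Hochberg adjustment over 16536 tested genes. The background was as sparse, 3 genes or 0.0181% of those tested, all higher in KO. At an unadjusted p under 0.05 stood 6 of the 10 members, beside 24.0% of all tested genes: Cdkn2a, Cdkn2b, Bax and Trp53 with the lower mean in KO (15.5% of all genes), and Rb1 and Sesn2 with the higher (8.57%). DESeq2 called 1 member, Cdkn2a, beside 9.42% of all genes. No member had groups that did not overlap, against 3.60% of tested genes. The median member log2 difference was -0.21, beside -0.03 over all tested genes.

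**Figure D1:**
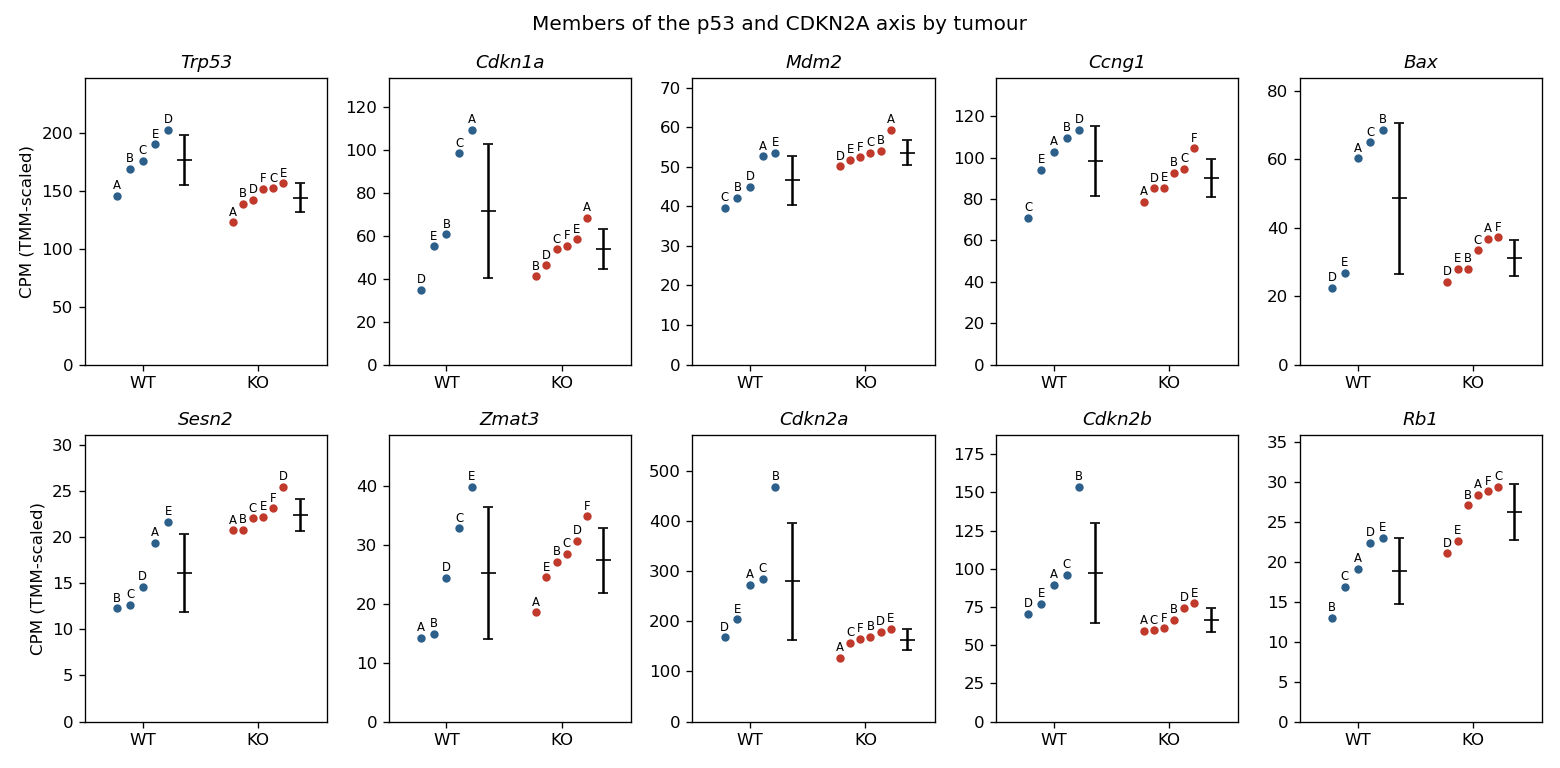
TMM-scaled CPM (vertical axes, from 0) of the 10 members in each tumour; letters are tumours, blue points WT (n = 5), red points KO (n = 6), black bars the mean ± SD. WT A, B and C hold the highest Bax, Cdkn2a and Cdkn2b values, and the KO and WT ranges overlap in every panel.

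Cdkn2a was the most abundant member once levels were divided by exon length. Over the 11 tumours it averaged 185 ± 82.1 CPM per kilobase (SD), above 98.4% of tested genes. Its chromosomal neighbour Cdkn2b followed at 57.9 ± 19.4 and Trp53 at 39.3 ± 5.80 CPM per kilobase. Ccng1 (26.7 ± 3.75) and Bax (24.8 ± 10.8) came next and could not be ordered, Ccng1 being the higher in 7 of 11 tumours. Below them came Cdkn1a at 17.4 ± 6.42, Mdm2 at 9.90 ± 1.15, Sesn2 at 5.63 ± 1.27, Rb1 at 3.81 ± 0.875 and Zmat3 at 2.31 ± 0.712 CPM per kilobase. Rb1 exceeded Zmat3 in 10 of 11 tumours, and every other neighbouring pair kept its order in 11 of 11. Mdm2 varied least between tumours (coefficient of variation 11.6%), and Cdkn2a (44.5%) and Bax (43.7%) most.

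**Figure D2:**
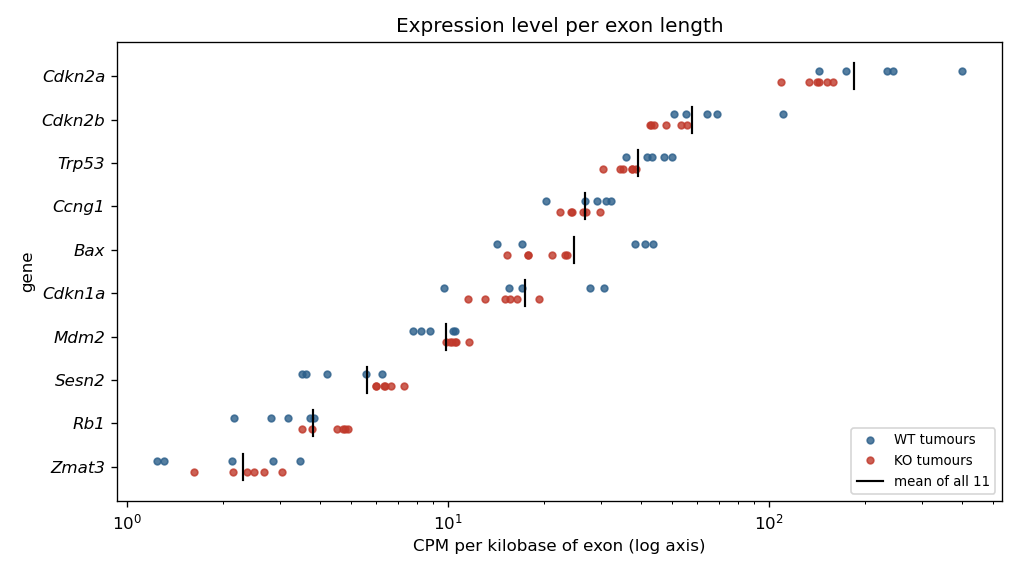
CPM per kilobase of exon (log axis) for the 10 members ordered by their mean over 11 tumours (black ticks); each point is a tumour, blue WT and red KO. The levels run from 2.31 for Zmat3 to 185 for Cdkn2a, and the neighbours Ccng1 and Bax overlap.

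Trp53, the gene of p53 itself (ENSMUSG00000059552, chr11:69580359-69591873, GRCm38), was measured from 2023 to 6436 counts per tumour. KO tumours ranged from 123 to 156.5 CPM with a median of 147. WT A stood at 145.5 CPM, B at 169, C at 176, D at 202.5 and E at 190.2. Only WT A fell inside the KO range, and the other 4 WT tumours lay above all 6 KO tumours. The means were 144 ± 12.3 CPM in KO and 176.5 ± 21.7 in WT, a log2 difference of -0.29 ± 0.13 (SE; edgeR adjusted p = 0.201). Without WT A, B and C the difference was -0.44, with only WT D and E, the highest WT values, left. After removal of the length trend it was -0.30. Trp53 missed the adjusted threshold in both fits (adjusted p = 0.131 and 0.171, edgeR). With library totals only the difference was -0.17, and leaving out 1 tumour gave -0.355 to -0.236.

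Mdm2 (ENSMUSG00000020184, chr10:117688875-117710758), which encodes the main p53 ubiquitin ligase, lay between 50.1 and 59.3 CPM in KO, with a median of 52.9. The WT values were 52.6 in A, 42.1 in B, 39.6 in C, 44.9 in D and 53.5 in E. The ranges overlapped through WT A and E, and the other 3 WT tumours lay below all KO tumours. The means were 53.5 ± 3.14 CPM in KO and 46.5 ± 6.28 in WT. The log2 difference was 0.20 ± 0.13 (SE; edgeR adjusted p = 0.352), and it was 0.13 without WT A, B and C and 0.12 with the length trend removed.

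Among the p53 targets, Cdkn1a (ENSMUSG00000023067, chr17:29090976-29100727), which encodes the cyclin-dependent kinase inhibitor p21, had WT values on both sides of the KO range. It stood at 109 CPM in A, 60.8 in B, 98.5 in C, 34.7 in D and 55.1 in E, against 41.2 to 68.3 with a median of 54.5 in KO. WT held both the 2 highest tumours and the lowest one. The log2 difference was -0.41 ± 0.26 (SE; edgeR adjusted p = 0.346), -0.37 with the length trend removed, and 0.27 without WT A, B and C. Leaving out WT A alone gave -0.21 and WT C alone -0.27. Summed markers of carcinoma epithelium were also highest in WT A (9254 CPM) and WT C (7040). The next highest sum was in WT D (5791), which had the lowest Cdkn1a value of all tumours. WT B and E had 3086 and 5523 CPM, and KO tumours 2657 to 5442. The part of epithelial content in the Cdkn1a values was not tested.

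Bax (ENSMUSG00000003873, chr7:45461697-45466898), the pore-forming effector of mitochondrial apoptosis, fell into 2 levels in WT. It measured 60.2 CPM in A, 68.5 in B and 64.9 in C but 22.4 in D and 26.8 in E. KO tumours ranged from 24.2 to 37.1 with a median of 30.7. All 6 lay below WT A, B and C, and WT E fell inside their range. The log2 difference of -0.64 ± 0.29 (SE; edgeR adjusted p = 0.196) became -0.24 with the length trend removed and 0.35 without WT A, B and C. Of the exon bases of Bax, 192 (12.2%) are shared with Gm45808 on the same strand, where reads cannot be assigned to one gene.

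Sesn2 (ENSMUSG00000028893, chr4:132492032-132510501), an inhibitor of mTORC1 signalling induced by p53 and by ATF4, came close to separating the groups. KO tumours lay between 20.7 and 25.5 CPM with a median of 22.1. WT A stood at 19.4, B at 12.3, C at 12.6, D at 14.7 and E at 21.7 CPM. WT E alone reached the KO range, where it exceeded KO A and B. The log2 difference was 0.47 ± 0.18 (SE; edgeR adjusted p = 0.146), and it was 0.51 with the length trend removed and 0.31 without WT A, B and C. Leaving out WT E brought it to 0.61 and an adjusted p of 0.0464 (edgeR), in a fit where 11.1% of all genes passed.

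Ccng1 (ENSMUSG00000020326, chr11:40748552-40755311), which encodes cyclin G1, ranged from 78.6 to 104.5 CPM in KO (median 89.1). WT C was the lowest of all tumours at 70.9 and WT D the highest at 113, with WT A at 103, B at 109.6 and E at 94.3. The KO range lay inside the wider WT range. The log2 difference was -0.12 ± 0.15 (SE, edgeR adjusted p = 0.629), with -0.20 without WT A, B and C and -0.08 with the length trend removed. Leaving out 1 WT tumour gave -0.06 (D), -0.08 (B) or -0.22 (C). Its p53 element, shown above, was among the closest in letters to the consensus. Zmat3 (ENSMUSG00000027663, chr3:32334792-32366014), an RNA-binding splicing regulator, ranged from 18.6 to 34.8 CPM in KO (median 27.8). WT A (14.2) and B (14.9) were the lowest of all tumours and WT E (39.8) the highest, with C at 32.8 and D at 24.4. The log2 difference of 0.11 ± 0.27 (SE; edgeR adjusted p = 0.823) was -0.10 with the length trend removed and -0.23 without WT A, B and C, so its sign changed with the fit. Single tumours moved it as well, to -0.04 without WT A, -0.02 without WT B, 0.23 without WT C, 0.34 without WT E, 0.20 without KO A and 0.03 without KO F.

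Cdkn2a (ENSMUSG00000044303, chr4:89274471-89294653) had the largest difference of the 10. It measured 273 CPM in WT A, 468 in B, 285 in C, 168 in D and 204 in E. KO tumours ranged from 128 to 186 CPM with a median of 167. WT B stood far above the rest, and only WT D fell inside the KO range. The means of 164 ± 20.4 in KO and 279.5 ± 116 in WT gave a log2 difference of -0.77 ± 0.23 (SE; edgeR adjusted p = 0.102, unadjusted p = 0.00563). DESeq2 gave -0.77 with an adjusted p of 0.0327. Without WT A, B and C the difference shrank to -0.18, and with the length trend removed to -0.30 (edgeR adjusted p = 0.549 and 0.236). Leaving out WT D or WT E took it past the threshold (-0.91 and -0.86, edgeR adjusted p = 0.0442 and 0.0412), in fits where 5.07% and 11.1% of all genes passed. Leaving out WT B, the highest tumour, took it to -0.51 (edgeR adjusted p = 0.208). The gene's 2 transcripts, of 852 and 895 bases, share 575 bases, so the counts do not separate the p16INK4A and p19ARF messages.

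Cdkn2b (ENSMUSG00000073802, chr4:89306299-89311039), which lies next to Cdkn2a and encodes the kinase inhibitor p15INK4B, had the same ordering of WT tumours. It stood at 89.5 CPM in A, 154 in B, 95.8 in C, 70.3 in D and 77.0 in E, against 59.3 to 77.3 with a median of 63.9 in KO. WT A, B and C lay above every KO tumour, while D and E lay inside the KO range. The log2 difference was -0.55 ± 0.19 (SE; edgeR adjusted p = 0.127), and it was -0.15 without those 3 tumours, -0.32 without WT B alone (edgeR adjusted p = 0.281) and -0.16 with the length trend removed.

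Rb1 (ENSMUSG00000022105, chr14:73183673-73325822), the RB protein that the CDKN2A arm protects, ran the other way. KO tumours lay between 21.1 and 29.4 CPM with a median of 27.8. WT A stood at 19.1, B at 13.02, C at 16.9, D at 22.4 and E at 23.1 CPM. WT A, B and C were below all KO tumours, and the overlap came from KO D and E. The log2 difference of 0.47 ± 0.18 (SE; edgeR adjusted p = 0.142) was 0.36 with the length trend removed and 0.21 without WT A, B and C.

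**Figure D3:**
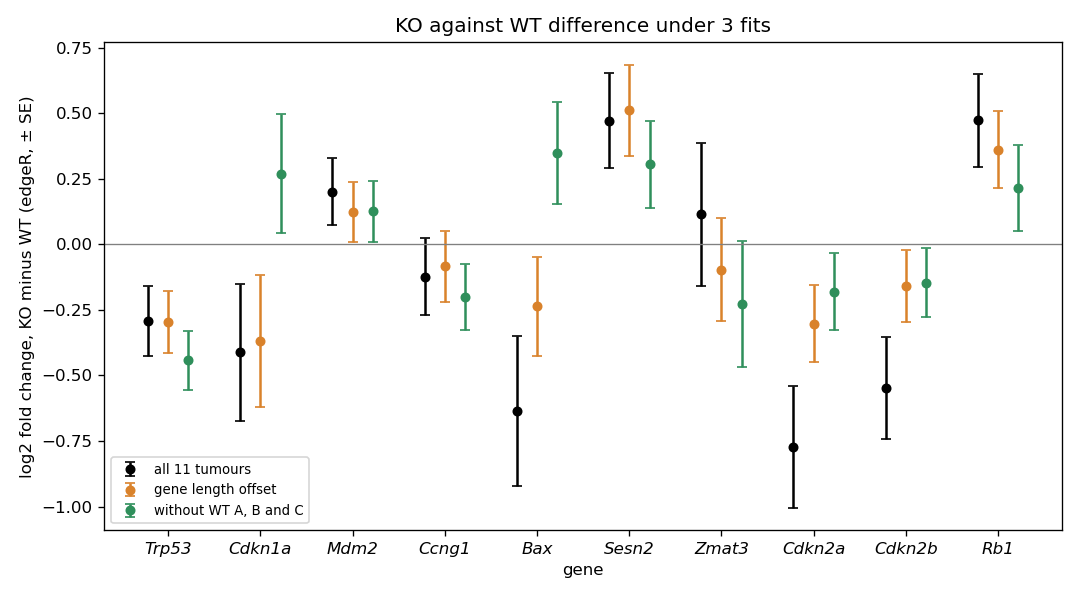
Log2 fold change of KO minus WT (edgeR, points ± SE) for each member in the fit of 11 tumours (black), with a per-tumour length offset (orange) and without WT A, B and C (green). Cdkn2a moves from -0.77 to -0.30 and -0.18, Bax turns from -0.64 to 0.35 without the 3 tumours, and Trp53 stays between -0.29 and -0.44.

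The sign of the member differences ran with exon length. Cdkn2a, Cdkn2b and Bax, of 1172, 1390 and 1576 exon bases, belonged to the shortest quartile of tested genes, whose median log2 difference was -0.42. Cdkn1a, Ccng1 and Sesn2 fell in the quartile above (median -0.11), Trp53, Mdm2 and Rb1 in the next (0.06) and Zmat3 in the longest (0.19). Sesn2 and Trp53 were the exceptions, with the sign opposite to that of their quartile. With the length offset the quartile medians lay between -0.05 and -0.01, which follows from fitting the offset to each tumour's own trend. The offset would also remove any group difference that ran with length. Of the 10 members, 3 then stood at an unadjusted p under 0.05 (Sesn2, Rb1 and Trp53), beside 23.0% of all genes, and 0 passed the adjusted threshold in edgeR (0.593% of all genes). Without WT A, B and C only Trp53 stood at an unadjusted p under 0.05, beside 17.2% of all genes, and 0 members passed the adjusted threshold (0.0398%). How far the length trend enters the member values was not tested beyond these 2 fits.

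**Figure D4:**
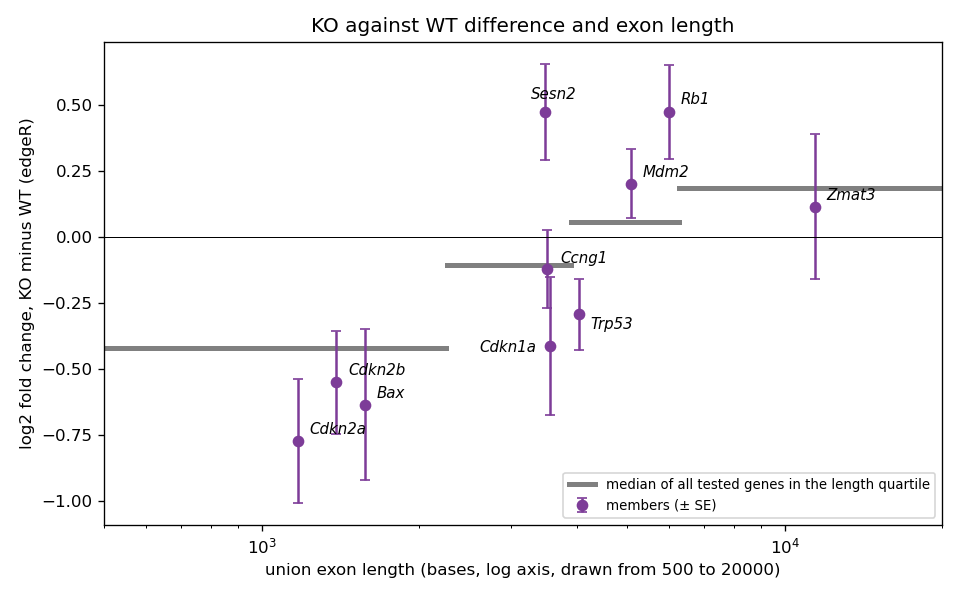
Log2 fold change of KO minus WT (edgeR, points ± SE) of the 10 members against union exon length in bases (log axis); grey lines are the medians of all tested genes in each length quartile. The 3 shortest members lie at or below -0.55 where the quartile median is -0.42, and Sesn2 and Trp53 lie on the other side of 0 from their lines.

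The other genes of the pathway were read in the same fit, and 0 of them passed the adjusted threshold in edgeR. Each list is to be read against the shares of all tested genes: 24.0% at an unadjusted p under 0.05, 9.42% called by DESeq2 and 3.60% without overlap, then 23.0% at an unadjusted p under 0.05 with the length offset and 17.2% without WT A, B and C. Of 37 tested p53 targets outside the members, 10 stood at an unadjusted p under 0.05, 5 higher and 5 lower in KO (27.0%), the median log2 difference was -0.03, and DESeq2 called 1. The count was 8 of 37 with the length offset and 9 of 38 without WT A, B and C. The gene called by DESeq2 was Apaf1, which encodes the apoptosome scaffold: 53.5 to 62.5 CPM in KO against 19.6 to 42.3 in WT, with no overlap (log2 difference 0.77 ± 0.20, edgeR adjusted p = 0.0869). The death receptor gene Fas had the largest positive difference at 0.83 ± 0.40 (edgeR adjusted p = 0.228), and the ribosomal protein gene Rps27l the largest negative at -0.99 ± 0.36 (edgeR adjusted p = 0.135).

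Among 15 regulators of p53, 2 (13.3%) stood at an unadjusted p under 0.05 and DESeq2 called 1. With the length offset 4 did, and without WT A, B and C 7 did, the median log2 difference going from -0.07 to -0.22 in both fits. The called gene was Sirt1, which encodes a p53 deacetylase: 14.1 to 20.3 CPM in KO against 10.1 to 13.9 in WT, without overlap (log2 difference 0.49 ± 0.17, edgeR adjusted p = 0.116). The checkpoint kinase gene Chek1 had the largest negative difference, -0.60 ± 0.21 (edgeR adjusted p = 0.125). Of 11 regulators of the Cdkn2a locus, 2 (18.2%) stood at an unadjusted p under 0.05, 3 with the length offset and 4 without WT A, B and C, and DESeq2 called 1, Ezh2. Ezh2, the Polycomb methyltransferase that represses the locus, had 46.4 to 63.9 CPM in KO and 69.6 to 84.6 in WT, without overlap (log2 difference -0.45 ± 0.13, edgeR adjusted p = 0.0943). Cbx7, a reader in the Polycomb complex, differed by 0.81 ± 0.30 (edgeR adjusted p = 0.132) and the repressor Id1 by -0.63 ± 0.39 (0.337).

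The cyclin, CDK, RB and E2F machinery had 6 of 20 genes at an unadjusted p under 0.05, 3 in each direction (30%), and DESeq2 called 2, E2f2 and Tfdp1. The count was 4 with the length offset and 6 without WT A, B and C. E2f2, an activating E2F, did not overlap between KO (15.8 to 28.4 CPM) and WT (4.92 to 13.8), with a log2 difference of 0.87 ± 0.26 (edgeR adjusted p = 0.0991). E2f4, a repressive E2F, did not overlap in the opposite direction, with 66.9 to 81.0 CPM in KO and 82.6 to 113 in WT (-0.35 ± 0.13, edgeR adjusted p = 0.135). Cyclin D2 (Ccnd2) had the largest negative difference, -0.78 ± 0.33 (edgeR adjusted p = 0.176). Of 18 E2F target genes, 3 stood at an unadjusted p under 0.05 (16.7%), all lower in KO, and DESeq2 called 0. With the length offset or without WT A, B and C the count was 4. The replication gene Gins2 differed by -0.75 ± 0.28 (edgeR adjusted p = 0.138) and the ribonucleotide reductase gene Rrm1 by 0.29 ± 0.19 (0.374). Their median of -0.15 lay beside -0.03 for all tested genes.

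Of 13 BCL2 family and caspase genes, which act with Bax in apoptosis, 5 (38.5%) stood at an unadjusted p under 0.05 and DESeq2 called 0. The count was 4 with the length offset and 1 without WT A, B and C, where the median turned from -0.10 to 0.12. Cytochrome c (Cycs) had the largest negative difference, -0.86 ± 0.33 (edgeR adjusted p = 0.148), and Bcl2l11, the BH3-only protein BIM, the largest positive, 0.37 ± 0.17 (0.208). The ATF4 stress programme, another known inducer of Sesn2, had 1 of 11 genes at an unadjusted p under 0.05 (9.09%). The count was 0 with the length offset and 1 without WT A, B and C, and DESeq2 called 0. In the fit of 11 tumours the gene under 0.05 was Atf4 itself at -0.49 ± 0.20 (edgeR adjusted p = 0.169). Ddit4, an mTORC1 inhibitor, stood at 0.25 ± 0.21 (edgeR adjusted p = 0.494).

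The paralogues of the members gave 3 of 12 tested genes at an unadjusted p under 0.05 (25%, and 4 of 12 in both other fits) and 0 called by edgeR or DESeq2. Trp63 and Trp73, the p53 family transcription factors, had at most 17 counts in any tumour and were not tested. Sesn1, the sestrin induced by p53, stood at 28.1 ± 3.92 CPM in KO and 19.6 ± 5.15 in WT, a log2 difference of 0.52 ± 0.19 that matched the sign of Sesn2 (edgeR adjusted p = 0.132). Sesn3 stood at 79.4 and 63.1 CPM (0.33 ± 0.28). The multidomain BCL2 relatives of Bax gave opposite signs, with Bok at 108 and 188 CPM (-0.81 ± 0.30) and Bak1 at 175 and 148 (0.25 ± 0.21).

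The RB relatives Rbl2 (52.99 CPM in KO and 38.7 in WT, 0.45 ± 0.21) and Rbl1 (35.2 and 29.4, 0.26 ± 0.21) had the same sign as Rb1. Rb1, Rbl1, Rbl2, Sesn1 and Sesn3 all belong to the 2 quartiles of longest genes, whose medians were also positive (0.06 and 0.19). The part of exon length in these shared signs was not tested. The remaining paralogues had edgeR adjusted p-values of 0.486 to 0.936, with Mdm4 differing by -0.11, Ccng2 by -0.13, Cdkn1b by 0.07, Cdkn1c by -0.43, Cdkn2c by 0.20 and Cdkn2d by -0.05 on the log2 scale. Around the Cdkn2a locus, Mtap stood at 135 ± 17.1 CPM in KO and 154 ± 23.1 in WT and Klhl9 at 69.8 ± 4.02 and 61.0 ± 13.9, both with an unadjusted p above 0.05 and 0 called by DESeq2. Dmrta1, Ifnb1 and Elavl2 had at most 8 counts in any tumour.

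The genes whose pattern over the 11 tumours was most like that of a member were found by the root mean square difference of z-scored log2(CPM + 1), a distance at which 0 means the same pattern. Nearest to Cdkn2a were Upf3a (0.205), 1500015A07Rik (0.209) and, next among all tested genes, Cdkn2b (0.214). For Trp53 they were Tdrkh (0.217), Riok1 (0.368) and Hnrnph1 (0.383). For Cdkn1a they were Ptp4a2 (0.322), Kcne3 (0.343) and Psmd13 (0.354), with Bax the nearest member at 0.592. For Rb1 they were Esyt1 (0.178), Slc16a6 (0.246) and Lin54 (0.265), with Mdm2 the nearest member at 0.627. The other members lay between 1.08 (Cdkn2a) and 1.73 (Mdm2) from Trp53. These tumours share the length trend and the 2 groups, and the distances are descriptions only.

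Cell type markers were read as sums of CPM beside the members. All 6 carcinoma epithelium markers had the lower mean in KO (log2 differences -0.07 to -1.62), with 3 at an unadjusted p under 0.05 (0 with the length offset, 1 without WT A, B and C) and 0 called by edgeR or DESeq2. All 5 B cell markers had the higher mean in KO, with sums of 33.6 to 102 CPM against 6.26 to 30.3 in WT, 5 at an unadjusted p under 0.05, 0 called by edgeR (2 with the length offset) and 5 by DESeq2. All 6 macrophage markers had the higher mean in KO, with 2 at an unadjusted p under 0.05 (5 with the length offset), 0 called by edgeR and 1 by DESeq2 (Csf1r), and sums of 1638 to 2957 CPM against 1232 to 2164. Neutrophil sums were 229 to 2120 CPM in KO and 150 to 909 in WT. The 5 neutrophil markers all had the higher mean in KO, with 3 at an unadjusted p under 0.05, 0 called by edgeR (1 with the length offset) and 2 by DESeq2. Fibroblast sums overlapped (4351 to 9356 and 2357 to 9303), and the 7 fibroblast markers all had the higher mean in KO, 0 of them at an unadjusted p under 0.05. Acinar sums were 7.14 to 520 CPM in KO (median 9.74) and 12.7 to 1356 in WT (median 87.5). They were highest in WT E (1356) and KO E (520), with at most 164 in the other tumours. Of 6 acinar markers 2 were tested, both with the lower mean in KO. At an unadjusted p under 0.05 stood 1 of them (1 also with the length offset), with 0 called by edgeR and 1 by DESeq2. Islet markers reached 309.5 CPM in WT E, 73.5 in KO F and 60.8 in WT A. T cell sums were 52.3 to 320 CPM in KO and 137 to 391 in WT. Of the 5 T cell markers, 3 had the higher mean in KO and 2 the lower. Endothelial sums were 146 to 204 CPM in KO and 104 to 211.5 in WT, with 4 of 5 markers higher in KO and 1 lower. In both sets 0 markers stood at an unadjusted p under 0.05 and 0 were called by edgeR or DESeq2. The part of cell composition in the member values was not tested.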

How the data were processed

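RNA from 11 tumours was sequenced on strand-specific libraries. Per the labels and the study's methods, the authors trimmed reads with Trimmomatic, aligned them with HISAT2 (version 2.1.0) to GRCm38 and counted uniquely aligned exonic reads with HTSeq (version 0.11.2). The deposited raw counts per gene were tested; a deposited table of normalised values was not used. The strand setting of the counting was not given in the sources used here, so exons shared with opposite-strand genes (Rb1 and Cdkn1a) remain uncertain. Groups and replicate letters came from the sample titles.

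Counts were tested with edgeR (version 4.0.16, R version 4.3.3; TMM, filterByExpr, quasi-likelihood F test, Benjamini-Hochberg over 16536 genes); the alternative was DESeq2 (version 1.42.0). Standard errors were the log2 fold change over the square root of F. On simulated counts the edgeR step was checked. The length offset was a lowess (span 0.3) of each tumour's deviations on union exon length from GENCODE M21. Text genes were the members, every paralogue, genes at an unadjusted p under 0.05 without overlap, each list's largest difference in either direction and the 3 genes nearest each of Trp53, Cdkn1a, Cdkn2a and Rb1; Tfdp1, Csf1r and the marker sums were added after their values were seen. The members and lists were chosen with earlier results of these data known. At these depths 3 counts equal 0.0964 to 0.184 CPM. The replicates were separate animals.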

Additional observations from a re-analysis of the deposited data

How the results depend on the processing

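Of 20 alternatives, 17 called 0 members, as did edgeR on all 11 tumours; DESeq2 called 1 (Cdkn2a), as did edgeR without WT D, and 2 (Cdkn2a and Sesn2) passed without WT E, so that leaving out 1 tumour gave 0 to 2. Members at an unadjusted p under 0.05 numbered 6, and 2 with the replicate block, 2 with the ribosomal RNA share as covariate, 1 without WT A, B and C, 3 with the length offset and 3 to 6 when 1 tumour was left out. Genes called higher and lower in KO were 3 and 0, and 568 and 990 by DESeq2, 13 and 1 with library totals only, 39 and 6 without a filter, 0 and 0 with at least 10 counts in every tumour, 8 and 1 with the replicate block, 2 and 1 with the ribosomal RNA covariate, 4 and 3 without WT A, B and C, and 69 and 29 with the length offset. Leaving out 1 tumour gave 0 to 608 higher and 0 to 1248 lower, with 608 and 1248 without WT E, 203 and 651 without WT D, 30 and 2 without KO F and 0 and 0 without any other tumour. Pathway genes outside the members called were 0, and 5 by DESeq2, and 0 to 6 when 1 tumour was left out (6 without WT E, 2 without WT D). Cdkn1a (0.27) and Bax (0.35) turned sign without WT A, B and C, Ccng1 (0.018) with library totals only, and Zmat3 with the ribosomal RNA covariate (-0.11), without WT A, B and C (-0.23), with the length offset (-0.10) and without WT A (-0.036) or WT B (-0.024), in a range of -0.036 to 0.341 when 1 tumour was left out. The cause was not tested, except that library totals only shifted the median over all genes from -0.03 to 0.11. The replicate letters did not pair the tumours: deviations of same-lettered KO and WT tumours correlated between -0.17 and 0.16, and 1 of 5 correlated best with its own letter. Every member had at least 147 counts in each tumour, so no member value rests on counts near 0.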
